A study of Canis lupus familiaris with 20 samples.

Results

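Interleukin 10 and tumour necrosis factor are cytokines by which macrophages turn inflammation down or up. IL10 acts on macrophages through STAT3 and lowers their output of inflammatory cytokines, whereas TNF acts through NF-kB and raises chemokines, adhesion molecules and proteases in the cells around. TGFB1, the third regulatory cytokine chosen, drives matrix production and is often named beside IL10 among the products of tumour-associated macrophages. The 3 genes were chosen by name, and their probes were found by matching the RefSeq accession of each probe to a gene symbol. IL10 was matched to 1 probe and TNF to 2, which makes 3 of 43603 probes, and 1045 symbols were matched in all. TGFB1 was matched to no probe and was not analysed here.

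The samples were dog cells. Sorted cancer cells came from 5 mammary tumour lines, the adenocarcinomas CMT-W1 and CMT-W2, the anaplastic P114, the simple carcinoma CMT-U27 and the spindle-cell tumour CMT-U309. Sorted macrophages were CD64-positive blood monocytes of healthy dogs that were kept in culture for 72 h, and neither population received a drug or a genetic change. In co-culture the monocytes were layered on cancer cells stained with CMTMR, a fluorescent dye. Stained cancer cells and unstained macrophages were then separated by flow cytometry, so that membership of a population rests on that stain. The paper reports nearly pure populations after sorting. By its account fluorescence microscopy found no stained cells among the sorted macrophages, and all sorted cancer cells were stained. Each two-colour array set a sorted population against its own mono-culture, and the 2 arrays with exchanged dyes were averaged to 1 replicate, which gives n = 5 for each cell type. Ratios below are log2 of co-culture over mono-culture. Per the paper, co-cultured cells were trypsinized and sorted before RNA was taken, while mono-cultures were washed and scraped, with no sorting described. Every ratio therefore also carries this difference in handling, which cannot be told apart from co-culture. How many separate macrophage mono-cultures were grown is not stated in the sources used here. The spread of the macrophage ratios, and of the macrophage mono-culture levels, can therefore leave out the variation of that culture. The p-values measure the spread between these 5 co-cultures only.

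Between 40.8% and 96.3% of the spots of a channel were well above background. Outlier marks covered 9870 spots on 1 array of the CMT-U309 cancer cells (co-culture RNA in Cy5) and at most 1438 on any other array. In mono-culture the summed level of 9 macrophage markers lay between 586000 and 778000 in macrophages and between 3180 and 24800 in cancer cells, so that the labels fit these markers before the cells met. After co-culture and sorting the same sum was 50500 to 178000 in the macrophages and 12800 to 352000 in the cancer cells, and the ranges overlapped. The epithelial markers did not separate the mono-cultures, since the sum of the 3 measured in every culture was 2490 to 6310 in cancer cells and 3440 to 5160 in macrophages. Fewer cells of a type and less RNA per cell cannot be told apart in such samples, and the part of mixed populations in the results below was not tested here.

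IL10 fell after co-culture in both sorted populations. Its ratio was below 0 in 5 of 5 co-cultures in the cancer cells and in 5 of 5 in the macrophages, with mean falls of 2.17-fold and 2.54-fold. The probe was well above background on all 20 arrays in both channels, was never saturated and carried no outlier mark. IL10 stands here for what this single probe reads, and whether it reads IL10 mRNA alone was not tested.

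In the cancer cells the IL10 ratio was -1.27 with CMT-U27, -1.72 with CMT-U309, -1.32 with P114, -0.75 with CMT-W1 and -0.52 with CMT-W2. The adenocarcinoma lines gave the smallest falls and the spindle-cell line the largest. The mean was -1.12 ± 0.48 (SD, n = 5), and it passed the test (limma, adjusted p = 0.0266). In the same comparison 7.42% of 23061 genes fell by this test, and 20.9% of the genes measured in all 5 co-cultures had 5 ratios below 0. A ratio lower than that of IL10 was found for 8.26% of the genes tested. The mean stayed near this size whichever line was left out, at -1.08 without CMT-U27 (adjusted p = 0.0704), -0.97 without CMT-U309 (adjusted p = 0.0651), -1.07 without P114 (adjusted p = 0.0916), -1.21 without CMT-W1 (adjusted p = 0.0448) and -1.27 without CMT-W2 (adjusted p = 0.0387). With another background correction, normexp with 50 added to both channels, the mean was -0.73 (adjusted p = 0.0549) after loess and -0.39 (adjusted p = 0.0912) after median centring, where the median of all genes stood at 0.22.

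The macrophages gave IL10 ratios of -1.01 with CMT-U27, -1.29 with CMT-U309, -1.19 with P114, -1.42 with CMT-W1 and -1.81 with CMT-W2. Every co-culture showed a fall of at least 2.01-fold, and the order of the lines was not that of the cancer cells, since CMT-W2 was lowest here and highest there. The mean was -1.35 ± 0.30 (SD, n = 5) with an adjusted p of 0.0021 in limma. By this test 27.9% of 24206 genes fell in macrophages, 31.4% of those measured in all 5 co-cultures had 5 ratios below 0, and 12.3% of the genes had a lower ratio than IL10. The median of all genes was -0.16, and the IL10 mean was -1.19 (adjusted p = 0.00444) once each population was centred on its own median. The normexp settings gave -0.79 and -0.73, with adjusted p-values of 0.00486 and 0.0138. IL10 passed the test in each of the alternatives run in macrophages, including those without 1 co-culture, where the mean lay between -1.43 and -1.23.

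Both populations together gave 10 of 10 IL10 ratios below 0, as did 10.6% of the genes measured in all 10, and IL10 fell by the test in both, as did 4.21% of the genes tested in both. The difference of the means, macrophages minus cancer cells, was -0.23 (SE 0.31) and did not pass the test (adjusted p = 0.603), where 31.8% of 22401 genes did. Slides carried arrays of 1 cell type with a single exception, the slide with the CMT-U27 macrophages and the CMT-W1 cancer cells, and within it the difference was -0.25.

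**Figure D1:**
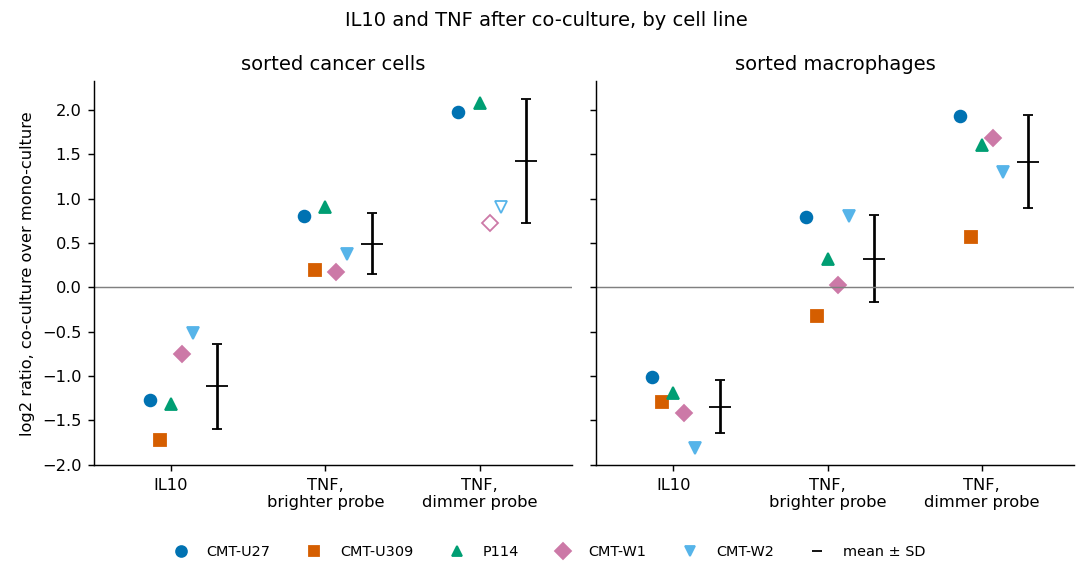
Co-culture over mono-culture as a log2 ratio (vertical axis) for IL10 and the 2 TNF probes in sorted cancer cells and sorted macrophages, with 1 point per cell line (mean of the 2 arrays) and the mean ± SD in black. Open points did not pass the filter on dim spots, and the CMT-U309 cancer cells have no point for the dimmer TNF probe because 1 array carried an outlier mark. All 10 IL10 points lie below 0, from -1.81 to -0.52, while all the points of the dimmer TNF probe lie above 0.

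The dye changed the size of the IL10 ratio. With the co-culture in Cy5 the ratio was higher than with the co-culture in Cy3 in 10 of 10 pairs, by 0.50 on average in the cancer cells and by 0.69 in the macrophages, and all 20 arrays stayed below 0. Of 14065 genes measured in all 10 pairs, 6.48% were higher in Cy5 in every pair, and the median gap over genes was 0.02 in each cell type. The 2 arrays of CMT-U27 cancer cells differed least, at -1.26 and -1.27. The CMT-W2 cancer cells had -0.06 with the co-culture in Cy5 and -0.98 with it in Cy3, and CMT-W1 had -0.29 and -1.22. The value of -0.06 came from the array with 1438 outlier-marked spots, although its IL10 spot carried no mark. With the co-culture in Cy3 the lines CMT-W2 and CMT-W1 still had the smallest falls, but CMT-W1 at -1.22 was close to CMT-U27 at -1.27. With it in Cy5 alone the cancer cell mean was -0.87 (adjusted p = 0.115), against -1.37 (adjusted p = 0.00975) in Cy3 alone. In macrophages each orientation alone passed the test, with adjusted p-values of 0.0121 in Cy5 and 0.00145 in Cy3, where the mean was -1.69.

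**Figure D2:**
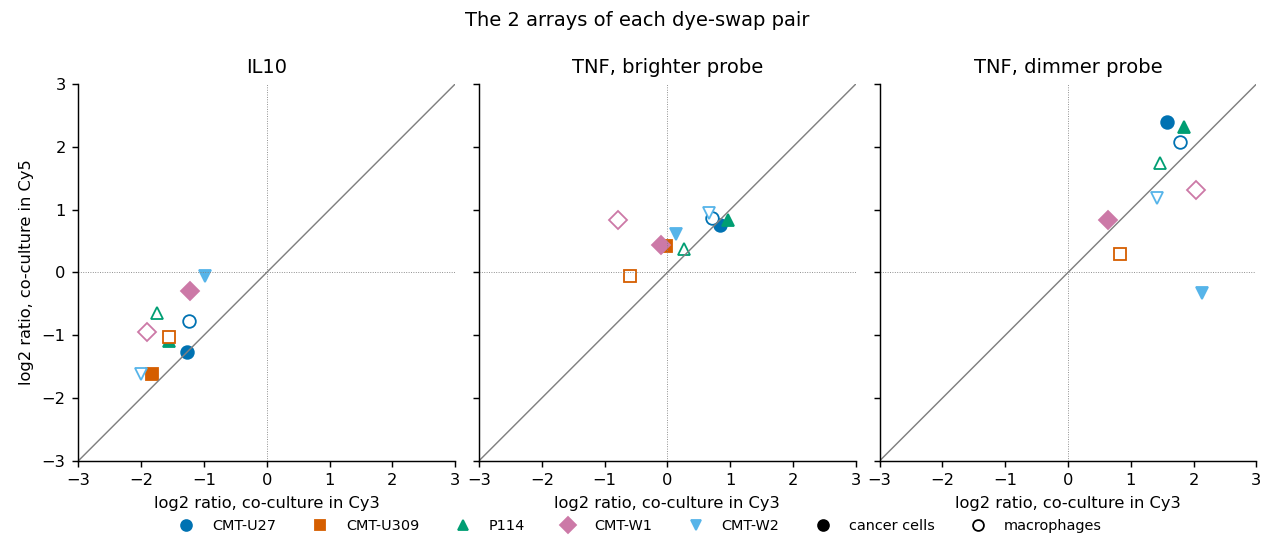
The 2 arrays of each dye-swap pair, with the co-culture over mono-culture log2 ratio measured with the co-culture in Cy3 (horizontal axis) and in Cy5 (vertical axis), cancer cells filled and macrophages open. The grey diagonal marks equal values. IL10 lies above the diagonal in all 10 pairs and below 0 on both axes, and the dimmer TNF probe of CMT-W2 cancer cells lies far off it, at 2.13 and -0.32.

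As levels, taken per channel and averaged over both dyes, IL10 in cancer cell mono-cultures was 11.82 in CMT-U27, 10.65 in CMT-U309, 10.68 in P114, 11.16 in CMT-W1 and 10.22 in CMT-W2 on the log2 scale. The macrophage mono-culture readings were closer to each other, at 10.33, 10.43, 10.62, 10.81 and 10.50 in the same order of co-cultures. How many separate cultures these readings come from is not stated. Their spread can therefore be that of the arrays alone, although the test takes them as n = 5. The cancer cell mean of 10.90 ± 0.61 (SD, n = 5) and the macrophage mean of 10.54 ± 0.18 (SD, n = 5) differed by -0.37 (macrophages minus cancer cells, adjusted p = 0.418), where 33.2% of 24866 genes passed the test. IL10, a cytokine of macrophages and lymphocytes, was thus read by this probe at a level in the tumour lines that did not differ from that of macrophages beyond the spread, while the summed macrophage markers were far apart in the same channels.

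After co-culture the IL10 level was 10.55 in CMT-U27 cancer cells, 8.93 in CMT-U309, 9.36 in P114, 10.40 in CMT-W1 and 9.69 in CMT-W2, with a mean of 9.79 ± 0.69 (SD, n = 5). The macrophages from the same co-cultures had, in that order, 9.33, 9.14, 9.42, 9.38 and 8.68, with a mean of 9.19 ± 0.31 (SD, n = 5). The difference of -0.60 had an adjusted p of 1 and an unadjusted p of 0.173 in limma. Here 1 gene in 24866 passed (0.00402%), and 691 had an unadjusted p under 0.05, so the sorted populations were hardly separable by this test for any gene. From high to low the order of the 4 cultures was cancer cells alone, macrophages alone, cancer cells after co-culture and macrophages after co-culture, and each neighbouring pair had overlapping ranges.

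**Figure D3:**
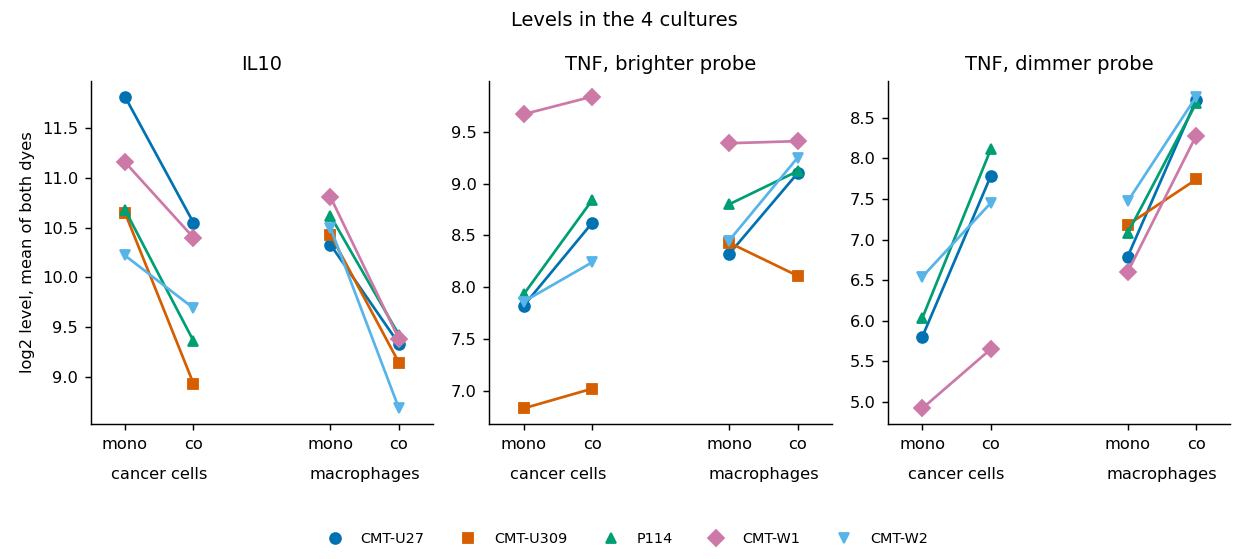
Log2 level (mean of both dyes, each panel with its own scale) of IL10 and the 2 TNF probes in mono-culture and co-culture, with a line joining the 2 cultures of each sorted population. IL10 falls along all 10 lines, the brighter TNF probe is higher after co-culture along 9 lines and lower along 1, and the dimmer TNF probe is higher along all 9 lines shown.

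The genes with a symbol whose 10 ratios were most like those of IL10 were TAS2R41, a taste receptor, ATP7B, a copper transporter, DEFB124, a beta-defensin, ST6GALNAC1, a sialyltransferase, and DRD2, a dopamine receptor. Their mean absolute difference from IL10 was 0.29, 0.31, 0.32, 0.33 and 0.35, against a median of 1.52 over 651 genes, and it was taken over 10 sorted populations, or 9 for DRD2. None of them is known as a cytokine gene. Likeness here is a description over populations that share slides and processing.

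TNF gave a different answer with each of its probes. The brighter probe, by which the gene is represented, showed no change that passed the test in either population, and the dimmer probe rose 2.67-fold in macrophages. Both read the same symbol, and the dimmer one had the higher ratio in 5 of 5 macrophage pairs and in 4 of 4 cancer cell pairs with a value. The CMT-U309 cancer cells had no value for the dimmer probe, whose arrays there read 0.17 and, with an outlier mark, -0.56. The brighter probe had 0.20 in that pair.

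The brighter TNF probe had ratios in the cancer cells of 0.80 with CMT-U27, 0.20 with CMT-U309, 0.91 with P114, 0.17 with CMT-W1 and 0.38 with CMT-W2. All were above 0, as were the 5 ratios of 15% of the genes measured in all 5, and only CMT-U27 and P114 exceeded 1.5-fold. The mean of 0.49 ± 0.34 (SD, n = 5) had an adjusted p of 0.161. On the 2 arrays of each pair the sign differed for CMT-U309 (0.42 and -0.02) and CMT-W1 (0.44 and -0.10).

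For this brighter probe the macrophage ratios were 0.79 with CMT-U27, -0.32 with CMT-U309, 0.32 with P114, 0.03 with CMT-W1 and 0.80 with CMT-W2. The mean was 0.32 ± 0.49 (SD, n = 5) with an adjusted p of 0.321, and 1 of 5 ratios was below 0. The value near 0 of CMT-W1 joined arrays at 0.83 and -0.78, a gap larger than that of 94.6% of the probes of that pair. The difference between cell types was -0.17 (SE 0.32, adjusted p = 0.719), and within the slide that held both it was 0.62, in the other direction.

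The dimmer TNF probe in macrophages read 1.93 with CMT-U27, 0.57 with CMT-U309, 1.60 with P114, 1.68 with CMT-W1 and 1.30 with CMT-W2. It was above background on all 10 arrays in both channels, and CMT-U309 was the lowest co-culture for both probes. The mean was 1.42 ± 0.53 (SD, n = 5), with an adjusted p of 0.00322 in a fit of every probe, where 23.3% of 28507 probes rose. The normexp settings brought it to 0.57 (adjusted p = 0.00676) and 0.56 (adjusted p = 0.0242), so the direction and the call were kept at a smaller size.

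In cancer cells this probe was above background on 5 of 10 arrays in mono-culture and on 7 of 10 in co-culture, and 2 pairs passed the filter, CMT-U27 at 1.98 and P114 at 2.08. That was too few for the test. CMT-W1 (0.73) and CMT-W2 (0.91) were dim, and the CMT-W2 value averaged arrays at -0.32 and 2.13. The array at -0.32 was the one with 1438 outlier-marked spots, and that at 2.13 was below background in both channels. With no filter the mean of 4 pairs was 1.42 ± 0.70 (SD, n = 4) with an adjusted p of 0.0812, and with the marked CMT-U309 spot kept the mean of 5 was 1.10 (adjusted p = 0.139).

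Ratio for ratio, the dimmer probe exceeded the brighter by 1.09 ± 0.44 (SD, n = 5) in macrophages, from 0.49 to 1.66. For cancer cells the excess was 0.86 ± 0.36 (SD, n = 4), and 2 of these pairs had not passed the filter.

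The TNF levels of the brighter probe in mono-culture were 7.82 in CMT-U27, 6.83 in CMT-U309, 7.93 in P114, 9.67 in CMT-W1 and 7.86 in CMT-W2, and 8.32, 8.43, 8.80, 9.39 and 8.45 in the macrophages used with them. CMT-W1 was the only line whose level lay above that of its macrophages. The means were 8.02 ± 1.03 and 8.68 ± 0.44 (SD, n = 5 each), a difference of 0.65 with an adjusted p of 0.316, and without CMT-W1 it was 0.89 with an adjusted p of 0.0431. After co-culture the levels ran from 7.02 to 9.84 in cancer cells and from 8.11 to 9.41 in macrophages, and the means differed by 0.49 (adjusted p = 1). By the dimmer probe the macrophage mono-cultures, at 7.02 ± 0.34 (SD, n = 5), were above the cancer lines, at 5.82 ± 0.67 (SD, n = 4), by 1.20 (adjusted p = 0.0328, where 33.6% of 29239 probes passed). The size of that difference is uncertain, because the probe was above background on 5 of 10 cancer mono-culture arrays, on neither array of CMT-W1, and CMT-U309 had no value. The same difference after co-culture was 1.19 (adjusted p = 1, unadjusted p = 0.0518).

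The genes most like the brighter TNF probe over the 10 populations were BRD2, a chromatin reader, PPP3CA, a calcineurin subunit, RTN3, a reticulon, SEC11C, a signal peptidase subunit, and TCAP, a muscle protein. Their mean absolute differences lay between 0.35 and 0.39, against a median of 1.15 over 651 genes. All of these had mean ratios within 1 of 0 in both populations, so the likeness is one of small ratios.

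Around TNF, 53 genes of the superfamily and its signalling were listed, and 11 of them had a matched probe. In cancer cells 8 were tested, of which 6 rose, 0 fell and 2 did not pass. Their median ratio was 1.67 against -0.02 over all genes (7.13% of all genes rose). CD40, a receptor of antigen-presenting cells, rose by 4.38, BIRC3, an inhibitor of cell death that NF-kB induces, by 3.75, and LTB, a lymphotoxin subunit, by 2.80. The lowest were BIRC2 at 0.98, which passed (adjusted p = 0.05 as rounded), MAPK14 at 0.73 and CASP8 at 0.48. With 1 line left out, 3 of the list rose without CMT-U27 or without P114, and 4 without any of the other lines. Over all genes the number that rose dropped too, from 1644 to between 633 and 1264 with 1 line left out. LTB was above background on 4 of 10 arrays in mono-culture.

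In macrophages 9 genes of that list were tested, of which 4 rose, 2 fell and 3 did not pass. The median was 0.68 against -0.16 over all genes, of which 22.4% rose and 27.9% fell. BIRC3 rose by 1.79, TNFRSF18, a co-stimulatory receptor, by 1.61 and LTB by 1.59. TNFSF10, the death ligand TRAIL, had -1.11 and fell, as did the kinase MAPK14 at -1.26, while CASP8 stood at -0.43. No probe was matched to the TNF receptors TNFRSF1A and TNFRSF1B or to the TNF-releasing protease ADAM17, and they were not analysed here.

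Of 21 listed genes known to be induced by TNF, 15 had a matched probe and 13 were tested in cancer cells. Of the tested genes 11 rose and 0 fell, where 7.13% of all genes rose. The median of the 13 was 4.86 against -0.02. The filter accepts a gene through either culture, and 5 of the 13 were above background on 5 or fewer of 10 mono-culture arrays, so the count and the median describe the genes that passed and their folds are not exact. CXCL8, a neutrophil chemokine, had 7.67 and PTGS2, the inducible cyclooxygenase, had 7.17. SELE, an adhesion molecule, was above background on no mono-culture array and passed the filter only through the co-culture, in 3 pairs. It was at least 9.12-fold higher in co-culture. This bound sets the co-culture mean level of 9.08 on the log2 scale against 5.90, the mean over mono-culture arrays of the lowest signal above background or the probe's own signal, whichever was higher, where the mean measured was 4.55. The lowest were ICAM1 at 1.41, which passed, CCL20 at 2.53 and CCL5 at 3.99, which passed. In these same populations 9 of 10 tested macrophage markers rose and 0 fell, and their median was 4.14. Of these 10 markers 6 were above background on 5 or fewer of 10 mono-culture arrays, among them CD163, the haemoglobin scavenger receptor, at 6.83 and C5AR1, a complement receptor, at 4.98 (4 arrays each). TYROBP, a signalling adaptor of myeloid cells seen on all 10, rose by 2.54.

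The macrophages gave 6 of 14 genes of the TNF-induced list that rose, 1 that fell and 7 that did not pass. The median of the 14 was 0.78 against -0.16 over all genes, of which 22.4% rose and 27.9% fell. Here 3 of the 14, SELE, MMP3 and IL6, were above background on 5 or fewer of 10 mono-culture arrays. All of these were among the genes that rose, so the count and the median describe the genes that passed the filter. MMP3, a matrix protease above background on 1 of 10 mono-culture arrays, had 6.71, and CSF2, the growth factor of granulocytes and macrophages, rose by 4.31. SELE was again above background on no mono-culture array and passed the filter only through the co-culture, in 3 pairs. It was at least 6.65-fold higher in co-culture. MMP9 at -2.29 and IL1B at -2.04 did not pass, and IL1A at -1.89 fell. Of the macrophage markers 10 of 11 fell in the same samples and 0 rose, where 27.9% of all genes fell. Their median was -3.46, with C5AR1 at -5.73 and CD163 at -5.45.

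Around IL10, the receptor genes IL10RA and IL10RB had no matched probe, and 1 gene of the family and its signalling was tested. That gene was SOCS3, the feedback inhibitor that STAT3 induces. It fell in cancer cells at -0.84 ± 0.29 (SD, n = 5, adjusted p = 0.0381) and in macrophages at -1.48 ± 0.40 (SD, n = 5, adjusted p = 0.00186), with 5 of 5 ratios below 0 in each. The cancer cell call was lost in 9 of 15 alternatives, which were each line left out, both normexp settings, the co-culture in Cy5 only and the methods' t-test. The macrophage call was kept in all 15.

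Of 11 listed genes that IL10 is known to induce in monocytes, 6 had a matched probe and were tested. In macrophages 5 of these 6 fell and 0 rose, where 27.9% of all genes fell. The median was -3.28 against -0.16. CD163 stood at -5.45, HMOX1, haem oxygenase, at -4.01 and FCGR1A, the CD64 receptor by which the monocytes had been sorted, at -3.97. IL1RN, the IL1 receptor antagonist, was the highest at -0.85. In cancer cells 3 of 6 rose and 1 fell (SOCS3), where 7.13% and 7.42% of all genes did, and the median was 2.01 against -0.02, with CD163 at 6.83, FCGR1A at 5.47 and SLAMF1 at 2.34, above background on 4, 7 and 5 of 10 mono-culture arrays, and with IL1RN at 1.68 and HMOX1 at 0.08 short of the threshold. CD163 and FCGR1A stand in the macrophage marker list too, whose summed level was higher after co-culture in cancer cells and lower in macrophages, and its part in these counts was not tested.

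**Figure D4:**
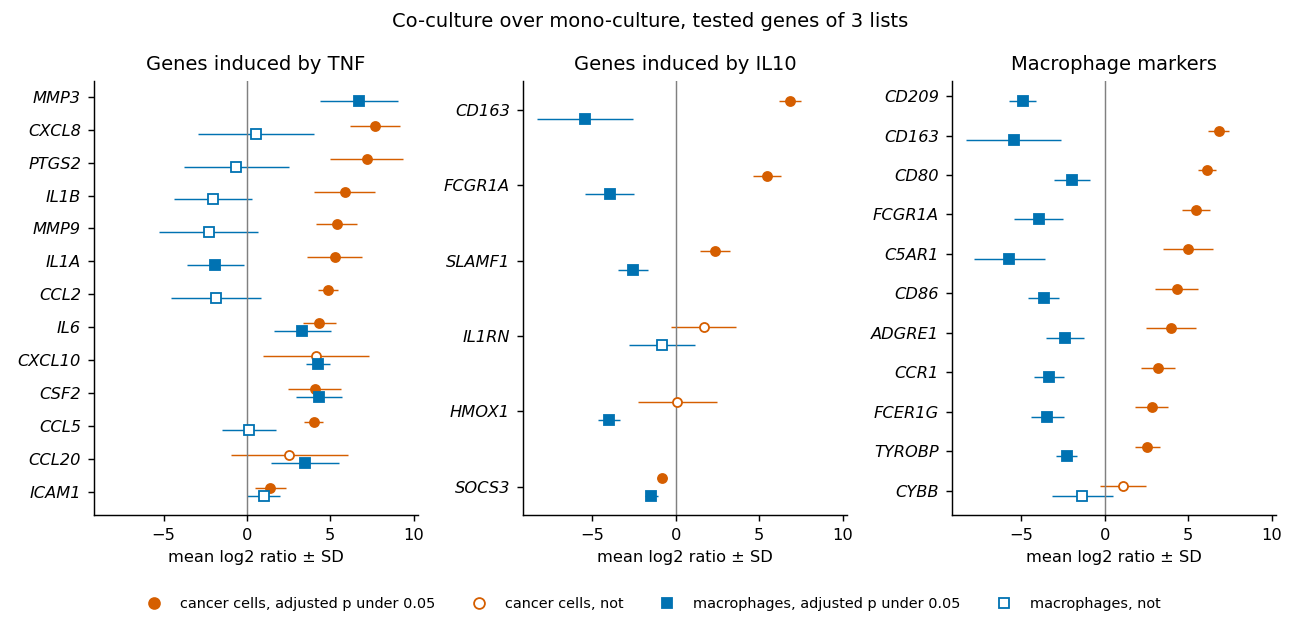
Mean log2 ratio ± SD, co-culture over mono-culture (horizontal axis), of the tested genes of 3 lists, with cancer cells as circles and macrophages as squares, filled where the adjusted p in limma was under 0.05, and without SELE, which was above background on no mono-culture array. The macrophage markers lie above 0 in cancer cells and below 0 in macrophages, the IL10-induced genes do so in part, and SOCS3 lies below 0 in both.

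Of the TGF-beta pathway, 2 genes of the ligands, receptors and signalling list were tested. BMP7, a bone morphogenetic protein, had -1.76 in cancer cells and fell, and 0.38 in macrophages. The fall was not called under both normexp settings, by the methods' t-test or without P114. BMPR1A, a receptor, was above background on no macrophage mono-culture array and passed the filter only through the co-culture. It was at least 1.53-fold higher in co-culture. Its call was lost with normexp and median centring (adjusted p = 0.0747) and with no filter (adjusted p = 0.0735). The call rests on 3 pairs, those of CMT-U27, CMT-U309 and P114, and could not be tested without any of these. In cancer cells BMPR1A had -0.53. Among genes known to be induced by TGF-beta, the collagen chain COL1A2, above background on 9 of 10 mono-culture arrays, rose in macrophages by 4.25. COL1A1 had 4.32 from 3 pairs and SNAI2, a transcription factor, 3.04, with 2 and 4 of 10 mono-culture arrays above background, so their folds are not exact. TIMP1, an inhibitor of matrix proteases, had -0.03 there and did not pass. In cancer cells none of these 4 genes passed the test, with COL1A1 at 0.80, COL1A2 at -0.80, TIMP1 at -0.72 and SNAI2 at -0.02, and neither did DCN, a matrix proteoglycan, at 0.89. The collagens are also mesenchymal markers, and the summed level of the 4 mesenchymal markers in macrophages was 11700 to 18700 in mono-culture and 7370 to 464000 after co-culture, against 4950 to 132000 in cancer cell mono-cultures.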

How the data were processed

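The authors deposited, per the file headers, scanner output of Agilent Feature Extraction 10.7.3.1 for 20 two-colour arrays: linear intensity per spot (median, background and processed signals) and a log10 ratio of Cy5 over Cy3 after background correction and dye normalization. Their deposited score columns (0 or 1) mark spots above background, saturated or outlying. The authors' table of values equals that log10 ratio turned to co-culture over mono-culture (largest gap 5.00e-06).

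Here the ratio was put on the log2 scale, outlier-marked spots were left out, and dye-swap pairs were averaged. A gene was its brightest probe, tested where both arrays were above background, in either culture, in at least 3 of 5 pairs. limma 3.58.1 (R 4.3.3) was fitted over all genes, with Benjamini-Hochberg adjustment and a threshold of 0.05; levels came from processed signals after Aquantile normalization. The fits were checked on simulated data; matplotlib 3.10.9 drew the plots. Populations of one co-culture share its line and are paired by design: their deviations correlated at 0.04 (CMT-U27), 0.45 (CMT-U309), 0.19 (P114), 0.27 (CMT-W1) and 0.06 (CMT-W2), against -0.38 to 0.19 between lines. Slide and scan coincide.

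Symbols came from a RefSeq gene table of UU_Cfam_GSD_1.0, which named 1648 probes. Members and lists were chosen with earlier results of these data known. Named genes were the members, listed receptors and partners, in each list up to 3 highest and 3 lowest ratios, and the 5 genes most alike; of the macrophage markers a few examples were named. Of the genes induced by TGF-beta, single genes are given without counts over the list, part of which is not reported here. Lymphocyte, granulocyte and natural killer cell markers were also listed. Alternatives were other background correction, centring, filters, dye orientations, slide and line blocks, the methods' t-test and each co-culture left out. The methods' t-test was unpaired and compared co-culture levels with mono-culture levels, so differences in level between the lines stay in its error. The number of arrays limits the precision.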

Additional observations from a re-analysis of the deposited data

Results flagged for a closer look

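Among the macrophages after co-culture, the level of TNF by its brighter probe was 8.11 (log2) with CMT-U309, while the other 4 lay between 9.10 and 9.41. The gap to the nearest, as a share of the range, was 0.762 against a critical value of 0.71 for 5 samples. Of 18 groups of member values looked at, 1 passed, and chance gives about 1 in 20. No difference between the cell types in the response of IL10 or TNF passed the test.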

How the results depend on the processing

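IL10 kept its direction in all 16 alternatives run in cancer cells (-1.37 to -0.39) and in all 16 in macrophages (-1.69 to -0.73), although 5 of these (the deposited value table, no filter, marked spots kept, every probe, the methods' t-test) gave the same means. Its call held in each of those in macrophages (highest adjusted p 0.0138) and was lost in 7 in cancer cells. Those were normexp and loess (-0.73), normexp and median centring (-0.39), the co-culture in Cy5 only (-0.87), the methods' t-test (-1.12, adjusted p = 0.338), and CMT-U27, CMT-U309 or P114 left out (lowest -1.27 and highest -0.97 over the 5 lines left out). TNF by its brighter probe kept its direction without a call in both populations (0.21 to 0.61 and 0.05 to 0.59). The uncalled difference between cell types of TNF turned to 0.07 and 0.04 with normexp and loess or median centring, to 0.62 with slide as a fixed block and to 0.62 within the slide holding both cell types. That of IL10 was -0.25 within this slide and ran from -0.39 to 0.04 over lines left out, turning without CMT-W2. The TNF difference in mono-culture ran from 0.42 to 0.89 over lines left out, past the threshold without CMT-W1. With cell line as replicate block the differences were -0.23 for IL10 (adjusted p = 0.609) and -0.17 for TNF (adjusted p = 0.64), and the block changed no call of a member. Calls in cancer cells (1644 up and 1712 down) were least stable, with 444 and 532 under normexp and loess, 2494 and 330 under median centring, 3865 and 4306 with slide as a random block, 8 and 1 by the methods' t-test, and 633 and 203 without P114. In macrophages the methods' t-test, which is unpaired, called 4737 up and 6357 down, against 5431 and 6756 in the main fit. The slide as a fixed block left 196 and 202 of 3509 and 3609 differences. TNF-induced genes that rose in cancer cells numbered 0 by the methods' t-test, 5 under normexp and loess and up to 13 otherwise, superfamily genes 0 to 7, macrophage markers 0 to 10, and TNF-induced genes that fell in macrophages 0 to 4. The cause of these shifts was not tested. Planned fits of TGFB1 could not be made. Centring each population on its median was chosen after seeing the data.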
